A study of Mus musculus with 32 samples.

Results

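Albumin and 8 further carrier proteins that hepatocytes secrete into the blood were followed through their transcripts in mouse liver: Alb, Afm, Gc, Rbp4, Ambp, Ahsg, Fetub, Azgp1 and Serpina6. The genes were listed by name and matched by symbol to the Ensembl identifiers of the count table, which gave 9 of its 52636 genes. The 32 liver libraries, each with its own identifier in the labels and taken here as 1 mouse, formed 8 groups of 4, with wild-type mice and Thrb knockouts each given triiodothyronine (T3) or phosphate-buffered saline (PBS) and injected with carbon tetrachloride (CCl4) or oil. Thrb encodes thyroid hormone receptor beta, and the title of the series places the receptor in the resolution of liver fibrosis. Every group, also the wild-type PBS oil controls, ate a PTU/LID diet, a diet with propylthiouracil and little iodine that stops the thyroid from making hormone. CCl4 is a solvent that becomes a toxic radical in hepatocytes, through cytochrome P450 enzymes, and mice received 0.4 µl/g of it 2 times per week over 4 weeks, 9 injections in all. T3 was given in the water at 1 µg/ml in the last week of these only, and livers were collected 24 hours later than the final injection. The sources used here do not state the knockout allele or the strain and age of the mice. PBS mice are called hypothyroid below after this diet, and no group was without it.

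Carrier proteins of plasma keep small molecules in solution, slow their loss through the kidney and hand them to tissues. Albumin binds fatty acids, bilirubin and hormones and sets the oncotic pressure of blood, and the liver makes almost all of it. Transcripts of such carriers are among the most abundant of a hepatocyte, and several carriers, albumin and the retinol-binding protein among them, are known as negative acute-phase proteins because their synthesis falls during inflammation. In bulk liver RNA, fewer hepatocytes and less RNA per hepatocyte cannot be told apart.

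Library totals ran from 16985162 to 26118055 counts (median 21205139). Counts of the 9 genes ran from 470 for Serpina6 to 2850282 for Alb in a library, so counting error was small against the spread between mice. All 9 passed the filter on low counts. Thrb itself kept reads in every knockout library (15.9 to 42.6 CPM, counts scaled to a common library size with TMM library factors). It was lower in knockouts than in wild type with T3 on oil (log2 fold change with its standard error -0.70 ± 0.21, adjusted p = 0.0207 by edgeR) and with T3 on CCl4 (-1.01 ± 0.21, adjusted p = 9.66e-04), and was not called on PBS (-0.72 ± 0.21, adjusted p = 0.167 on oil and -0.23 ± 0.21, adjusted p = 0.600 on CCl4). CCl4 itself lowered Thrb in wild type on PBS (-1.33 ± 0.21, adjusted p = 2.32e-05). A count over the whole gene does not show which exons remain. Dio1, a T3-induced deiodinase gene used as a check of the hormone, rose after T3 in wild type on oil (11.12 ± 0.45, adjusted p = 1.07e-16) and in knockouts on oil (4.59 ± 0.33, adjusted p = 4.51e-10). The libraries farthest from their group means were replicate 2 of wild-type PBS CCl4 and replicate 3 of knockout PBS CCl4. Summed levels of 6 hepatocyte markers, among them Cps1 and Arg1, ran from 18004 to 22931 CPM in wild-type PBS oil livers and from 4927 to 11103 in wild-type PBS CCl4 livers. They ran from 11360.5 to 16581 CPM in wild-type T3 oil, 11736 to 16236 in wild-type T3 CCl4, 18919.5 to 22840.2 in knockout PBS oil, 5862 to 14623 in knockout PBS CCl4, 15005 to 17329.8 in knockout T3 oil and 5329 to 7718 in knockout T3 CCl4 livers. None of these markers was at 0. The 6 include a plasma carrier gene that is also on the list of other carriers below. Its mean was 9786 CPM in wild-type PBS oil and 3482 CPM in knockout T3 CCl4 livers, a large part of the sums. The sums are thus not independent of carrier levels, and the part of hepatocyte content in the results below was not tested.

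Alb dominated the set in every group. In wild-type PBS oil livers it took 10.4% ± 1.05 of all counts (SD, n = 4 mice here and below), and the 9 genes together took 12.7%. The Alb share was 5.30% ± 0.575 in wild-type PBS CCl4, 7.03% ± 0.753 in wild-type T3 oil and 6.37% ± 1.18 in wild-type T3 CCl4 livers. In knockouts it was 10.2% ± 0.599 (PBS oil), 7.70% ± 1.22 (PBS CCl4), 11.3% ± 1.36 (T3 oil) and 8.88% ± 1.3 (T3 CCl4). The lowest Alb share was thus in injured hypothyroid wild-type livers and the highest in uninjured T3-treated knockouts.

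**Figure D1:**
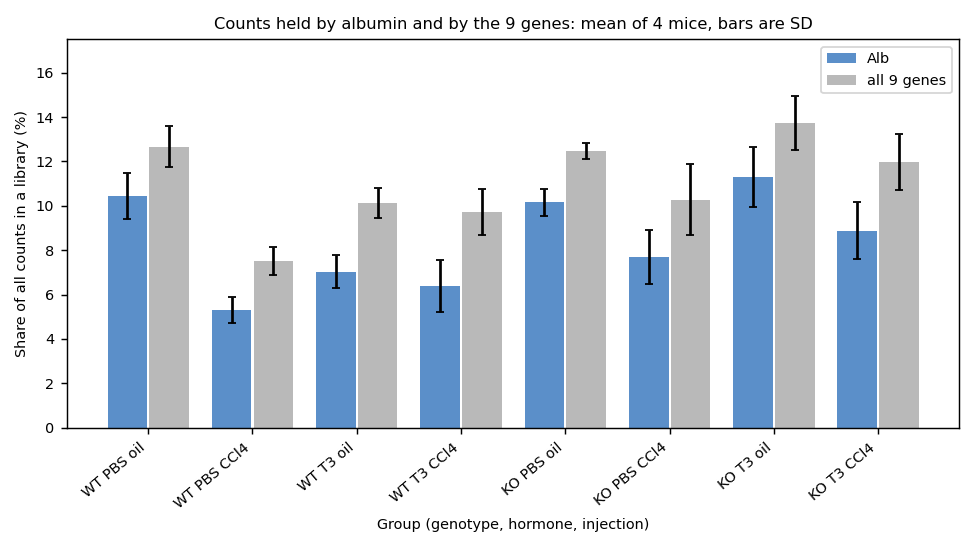
Percent of all counts of a library held by Alb (blue) and by the 9 carrier genes together (grey), mean of 4 mice with SD as error bars, by group. The Alb share was lowest in wild-type PBS CCl4 livers (5.30%) and highest in knockout T3 oil livers (11.3%).

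Per kilobase of merged exons, the levels in wild-type PBS oil livers followed the order Alb (49058 CPM per kilobase), Gc (4514), Ahsg (3406), Rbp4 (2308), Ambp (1664), Azgp1 (966), Serpina6 (335), Fetub (204) and Afm (139). Neighbours in this order did not overlap between mice except Gc with Ahsg and Serpina6 with Fetub. Alb was first in all 8 groups. Ahsg took the second place from Gc in all groups except both PBS oil groups, with 8627 CPM per kilobase against 3927 for Gc in wild-type T3 CCl4 livers, where the 2 genes did not overlap between mice. They did overlap in wild-type PBS CCl4 (3204 against 3132), knockout PBS CCl4 (4967 against 3419) and knockout T3 oil livers (4346 against 4136). Serpina6 dropped to the last place in wild-type PBS CCl4 livers (40.5, overlapping with Afm at 44.3) and in knockout T3 CCl4 livers (21, with no overlap with Afm at 55.1). Over the 8 group means the level of Serpina6 varied 18.1-fold, that of Afm 3.65-fold, Alb 2.76-fold, Ahsg 2.69-fold and Azgp1 2.09-fold, and those of Fetub, Ambp, Rbp4 and Gc between 1.44-fold and 1.90-fold.

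**Figure D2:**
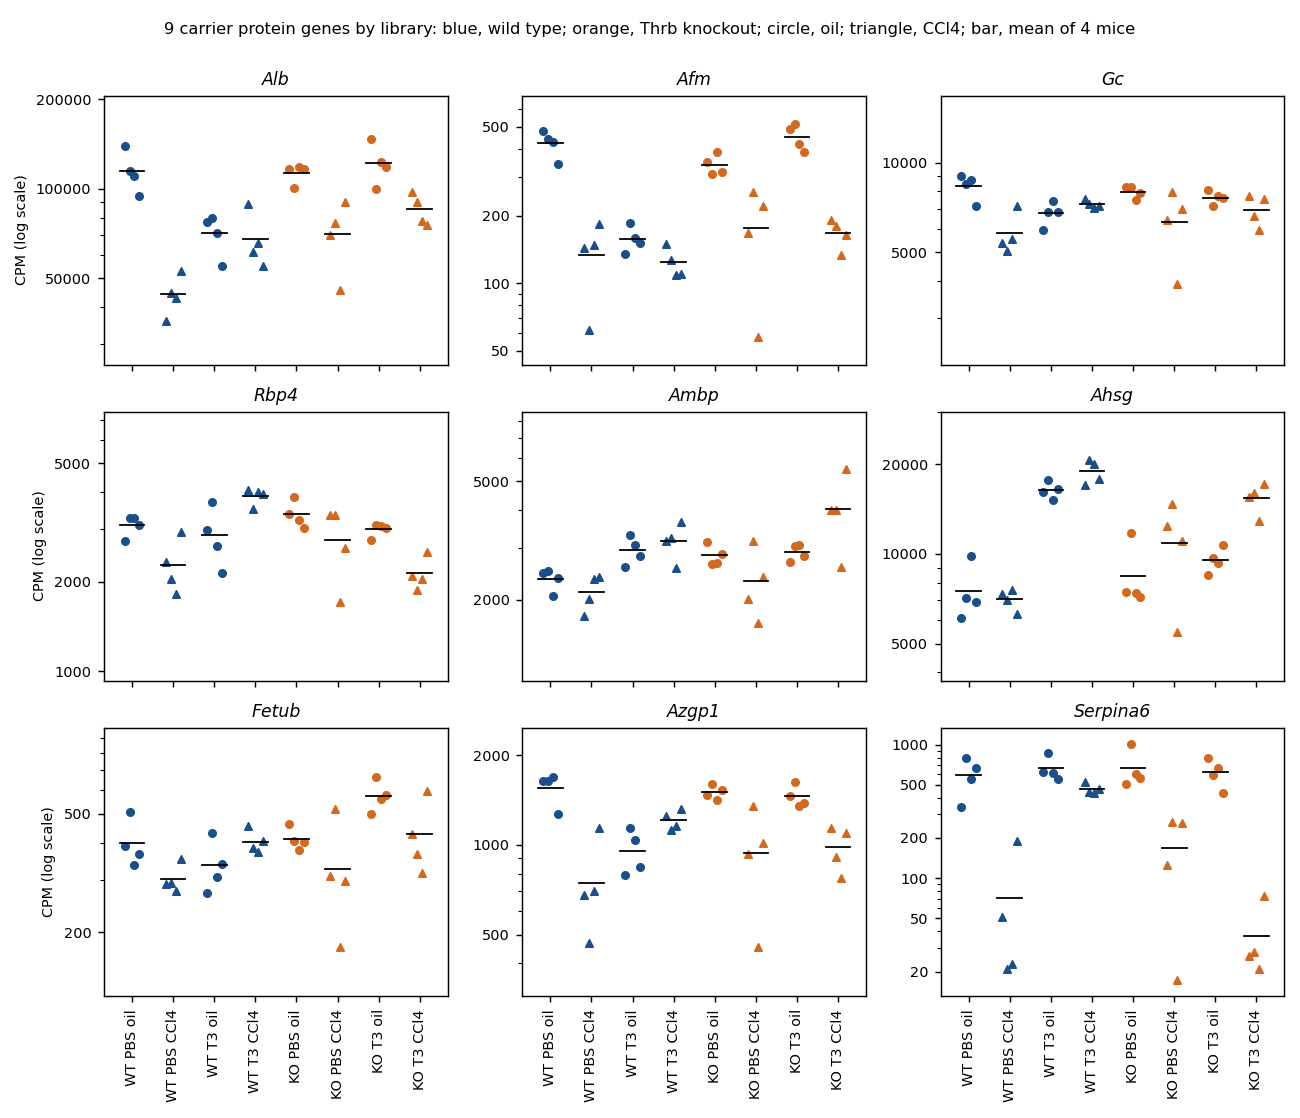
CPM of each gene in each library on a log axis, by group, with points in replicate order. Blue marks wild type and orange Thrb knockout, circles oil and triangles CCl4, and black bars the mean of 4 mice. Serpina6 lies far below its oil groups in 3 of the 4 CCl4 groups and stays near them in wild-type T3 CCl4 livers (468 CPM), and Ahsg is high in both wild-type T3 groups.

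In hypothyroid wild-type livers, CCl4 lowered 5 of the 9 genes and raised none (Serpina6, Afm, Alb, Azgp1 and Gc), where 46.2% of all 15599 genes tested were called, 24.6% higher and 21.6% lower. A call here is an adjusted p under 0.05 by edgeR's quasi-likelihood test with Benjamini-Hochberg adjustment over all genes tested, fold changes are log2 values from that fit with their standard errors (SE), and adjusted p-values below are from it unless another tool is named. The median log2 fold change was -0.53 over the 9 genes and 0.04 over all genes tested. In T3-treated wild-type livers CCl4 called none of the 9 (1 at an unadjusted p under 0.05, and none with DESeq2), where 3.4% of all genes were called, 1.67% higher and 1.74% lower. In knockouts CCl4 lowered 4 on PBS (31.1% of all genes called, 17.8% higher and 13.4% lower) and moved 5 on T3, 3 lower and 2 higher (39.6%, 19.7% higher and 19.8% lower; 5 lower and 2 higher with DESeq2). On PBS none of the 4 knockout falls was called in a fit of these 2 groups alone. Without knockout PBS CCl4 replicate 3, Ahsg was called higher there (0.59, adjusted p = 0.0248). With both distant libraries left out 2 of the 9 were called lower and 1, Ahsg, higher (0.59, adjusted p = 0.0227).

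In wild-type livers the calls for T3 were mostly lower on oil and all higher on CCl4, but largely for different genes. Only Alb and Azgp1 were called in both with opposite signs, and Ahsg rose in both. With total-count scaling the rises of Alb and Azgp1 on CCl4 were not called (0.26, adjusted p = 0.158 and 0.35, adjusted p = 0.124). On oil T3 lowered Alb, Afm and Azgp1 and raised Ahsg, 4 of 9 where 35.3% of all genes were called, 19% higher and 16.2% lower. Markers of other cells were summed in the same wild-type oil livers. Sums of 5 macrophage markers ran from 86.5 to 158 CPM on PBS and from 517 to 889 on T3, sums of 4 markers of dividing cells from 2.10 to 4.81 and from 41.5 to 115, and sums of 3 blood markers from 92.9 to 143 and from 109 to 313. The first 2 sums did not overlap between PBS and T3, and the blood sums did. In knockout oil livers macrophage sums ran from 87.0 to 135 CPM on PBS and from 406 to 603 on T3. Sums of dividing cells there ran from 1.94 to 3.13 and from 18.6 to 61.6, and blood sums from 82.7 to 129 and from 293 to 634. None of these knockout sums overlapped between PBS and T3. None of these markers was at 0, and their part in the T3 effects on oil was not tested. On CCl4 it raised 6 and lowered none (Ahsg, Serpina6, Rbp4, Azgp1, Ambp and Alb), where 41.7% of all genes were called, 20% higher and 21.7% lower. In knockouts T3 moved none on oil (1 at an unadjusted p under 0.05, none with DESeq2, and 18.7% of all genes called, 10.6% higher and 8.11% lower) and 2 on CCl4, Ambp up and Serpina6 down (2.54%, 1.77% higher and 0.769% lower). The wild-type response to T3 differed between CCl4 and oil for 5 genes, all with a more positive response on CCl4 (23.9% of all genes called, 10.8% higher and 13.1% lower). In knockouts none of the 9 passed that test (2 at an unadjusted p under 0.05, 1 with DESeq2, and 3.71% of all genes called, 1.15% higher and 2.56% lower).

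Between the genotypes no carrier was called on PBS. None passed on oil (none at an unadjusted p under 0.05 and none with DESeq2, with 0.538% of all genes called, 0.404% higher and 0.135% lower), and none on CCl4 (3 at an unadjusted p under 0.05, 2 with DESeq2, 2.25%, 1.21% higher and 1.04% lower). On T3 and oil, knockouts had more Afm, Alb and Fetub and less Ahsg than wild type (16.3% of all genes called, 7.14% higher and 9.21% lower). On T3 and CCl4 they had less Serpina6 and Rbp4 (22.9%, 10.4% higher and 12.5% lower). The T3 response itself differed between the genotypes for Afm and Ahsg on oil (12.2% of all genes called, 5.58% higher and 6.64% lower) and for Serpina6, Rbp4 and Ahsg on CCl4 (22.7%, 10.3% higher and 12.4% lower). The CCl4 response differed for Serpina6 and Rbp4 on T3 (13.5%, 6.2% higher and 7.26% lower) and for none on PBS (1 at an unadjusted p under 0.05, none with DESeq2, 0.0192%, 0% higher and 0.0192% lower). Comparisons that use the same group, such as the wild-type PBS CCl4 livers, share its 4 mice.

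Scaling by library totals alone moved the median of all genes tested by 0.40 for CCl4 in wild type on PBS, 0.31 for CCl4 in knockouts on PBS, -0.35 for T3 in wild type on CCl4 and -0.48 for the T3 by CCl4 difference in wild type (log2, total-count scaling minus TMM). The share of called genes that were higher then went from 53.2% to 81.8%, from 57.1% to 86.3%, from 47.9% to 20.3% and from 45.2% to 10.3% in these 4 comparisons. No called carrier changed direction under it. In these 4 comparisons it ended the calls of Gc for CCl4 in wild type on PBS (-0.13, adjusted p = 0.396) and of Alb, Azgp1 and Ambp for T3 in wild type on CCl4 (0.26, adjusted p = 0.158, 0.35, adjusted p = 0.124 and 0.21, adjusted p = 0.235 in turn). It also ended those of Azgp1 for CCl4 in knockouts on PBS (-0.43, adjusted p = 0.0741) and of Afm and Rbp4 for T3 by CCl4 in wild type (0.81, adjusted p = 0.0694 and 0.42, adjusted p = 0.141). It gained 1 call in them, a rise of Ahsg after CCl4 in knockouts on PBS (0.62, adjusted p = 0.0119). Library factors computed without the 9 genes changed no call among them.

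**Figure D3:**
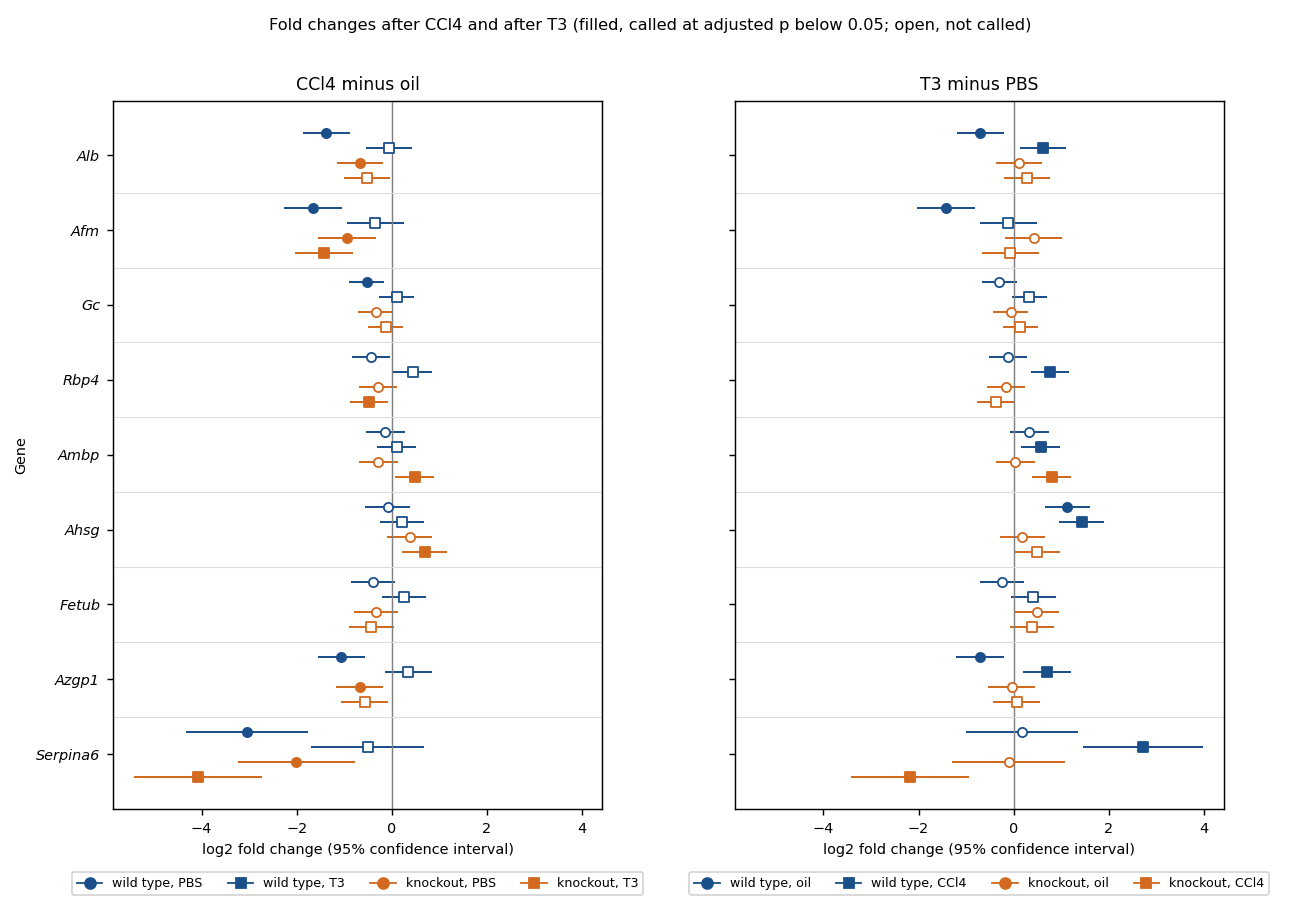
Log2 fold changes of the 9 genes after CCl4 (left) and after T3 (right) with 95% confidence intervals, wild type in blue and knockout in orange, filled where called. Circles are PBS (left) or oil (right) and squares T3 (left) or CCl4 (right). Serpina6 spans the widest range, from -4.08 for CCl4 in knockouts on T3 to 2.71 for T3 in wild type on CCl4.

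Alb (ENSMUSG00000029368, chromosome 5, 90460897 to 90476602, plus strand, GRCm38), Afm (ENSMUSG00000029369, chromosome 5, 90518932 to 90553543, plus strand) and Gc (ENSMUSG00000035540, chromosome 5, 89417522 to 89457898, minus strand) belong to the albumin gene family and lie in 1 cluster. Afm encodes afamin, a vitamin E and Wnt protein carrier, and Gc the vitamin D-binding protein, which also takes up actin released from dead cells. The promoters of Alb and Afm from this cluster are printed because both genes fell in wild type after CCl4 on PBS and after T3 on oil. The sequences are upstream of the RefSeq start on GRCm38.p6, 5′ to 3′ on the gene's strand: chr5:90460620-90460869 for Alb and chr5:90518799-90518948 for Afm, both on the plus strand. The RefSeq starts differ from the gene positions given above. The Alb window ends before 90460897, and the Afm window runs past 90518932. In Alb capitals mark exact matches of TTATGTAA on either strand (TTACATAA on the other), a D-box sequence bound by the Dbp, Hlf and Tef family of factors. Sites with other letters were not searched for, so unmarked bases may hold a D-box too. In Afm they mark AGGTCA, the half-site of many nuclear receptors.
Alb: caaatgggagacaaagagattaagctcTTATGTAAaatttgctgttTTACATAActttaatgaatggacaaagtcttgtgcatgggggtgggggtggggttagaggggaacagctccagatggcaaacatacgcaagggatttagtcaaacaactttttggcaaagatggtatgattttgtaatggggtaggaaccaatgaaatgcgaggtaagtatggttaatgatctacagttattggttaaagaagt
Afm: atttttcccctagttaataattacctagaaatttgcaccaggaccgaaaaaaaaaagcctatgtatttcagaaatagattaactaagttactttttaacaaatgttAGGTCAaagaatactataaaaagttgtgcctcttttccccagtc

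RefSeq promoter windows matched 8 of the 9 genes, all but Serpina6. In the 250 upstream bases, searched on both strands, TTATGTAA was present only in Alb among the 8, at 2 places that do not overlap another motif searched, against 0.819% of 32851 windows of the same length. CCAAT was present in 7 of 8 and in 33.8% of all windows. AGGTCA was present in Afm and Ambp and in 14% of all windows, and the repeat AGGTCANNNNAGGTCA in none of the 8 and in 0.0152% of all. A match is a string of letters and not a shown binding site, and sites that differ from these letters are missed. Of the D-box factors, Hlf and Tef, named here for these letters, were each called in 1 of the 2 comparisons in which Alb and Afm both fell in wild type. Azgp1 fell in both comparisons as well, and the windows of Afm and Azgp1 held no TTATGTAA. A link of these factors to the falls was not tested. Hlf fell after CCl4 in wild type on PBS (-1.29 ± 0.33, adjusted p = 0.00267) and was not called after T3 on oil (-0.60 ± 0.33, adjusted p = 0.163). Tef was not called after that CCl4 (-0.93 ± 0.47, adjusted p = 0.105) and fell after T3 on oil (-1.58 ± 0.48, adjusted p = 0.0106). Dbp, a clock-controlled activator, varied from 0.506 to 46.1 CPM among wild-type PBS oil livers alone and was called in none of the 18 comparisons.

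Alb measured 139566, 115051, 110665 and 94296 CPM in wild-type PBS oil livers (replicates 1 to 4 here and below) and 35904, 44806, 43082 and 52906 CPM in wild-type PBS CCl4 livers. Every injured liver was below every oil liver, and Alb fell 2.60-fold (-1.38 ± 0.23, adjusted p = 3.70e-05). With T3 the levels were 77095, 79962, 70897 and 55238 CPM on oil and 89209, 61492, 65793 and 55124 CPM on CCl4. These 2 groups overlapped and the CCl4 effect was -0.06 ± 0.23 (95% interval -0.52 to 0.40). T3 alone lowered Alb on oil (-0.70 ± 0.23, adjusted p = 0.0173) and raised it on CCl4 (0.62 ± 0.23, adjusted p = 0.0293), so that both T3 groups lay between the 2 PBS groups. The difference between these 2 responses was 1.32 ± 0.32, adjusted p = 0.00484. The fall on oil lost its call on leaving out T3 oil replicate 4 or PBS oil replicate 1 (-0.60, adjusted p = 0.0644 and -0.59, adjusted p = 0.0653). The rise on CCl4 lost its call without any 1 of 4 libraries (adjusted p up to 0.125, wild-type PBS CCl4 replicates 1 to 3 and T3 CCl4 replicate 1). The rise was also not called in a fit of the 2 CCl4 groups alone (0.62, adjusted p = 0.0916). With no filter neither was called (-0.70, adjusted p = 0.0706 on oil and 0.57, adjusted p = 0.140 on CCl4).

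In knockouts Alb measured 116405, 100487, 118008 and 116332 CPM in PBS oil, 70050.5, 76587, 45818 and 90626 in PBS CCl4, 147129, 99659.9, 123261 and 118221 in T3 oil and 97732, 90295, 77778 and 75624 in T3 CCl4 livers. T3 gave no call in either condition (0.11 ± 0.23 on oil and 0.27 ± 0.23 on CCl4). After CCl4 on T3 every liver was below every T3 oil liver, but the change of -0.52 ± 0.23, adjusted p = 0.0705 was not called, though DESeq2 called it (-0.52, adjusted p = 0.0152). The fall after CCl4 on PBS was smaller in size than in wild type and the groups did not overlap (-0.67 ± 0.23, adjusted p = 0.0262), but that difference between genotypes was not called (0.71 ± 0.32, adjusted p = 0.610). The knockout fall was not called without any 1 of 5 libraries (adjusted p 0.0513 to 0.0919, highest without knockout PBS CCl4 replicate 3), or in a fit of these 2 groups alone (-0.67, adjusted p = 0.268). With T3 on oil every knockout liver was above every wild-type liver (0.79 ± 0.23, adjusted p = 0.0169), though the call was lost without knockout T3 oil replicate 1 (0.67, adjusted p = 0.0596) or wild-type T3 oil replicate 4 (0.68, adjusted p = 0.0629).

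Afm, the least abundant of the family among the 9, had a T3 response that differed between the genotypes in uninjured livers. It measured 480.2, 439, 428 and 343 CPM in wild-type PBS oil and 135, 187, 159 and 151 CPM in wild-type T3 oil livers. All T3 livers were below all PBS livers, a 2.67-fold fall (-1.42 ± 0.29, adjusted p = 2.7e-04). The same groups of knockouts had 348, 307, 385 and 315 and 489, 517, 419 and 386 CPM, with the T3 livers all above the PBS livers, a change of 0.42 ± 0.28 that was not called (adjusted p = 0.332). The T3 response differed between the genotypes by 1.84 ± 0.40, adjusted p = 0.00264, and this held whichever library of the 4 groups was left out.

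CCl4 lowered Afm in wild type on PBS to 143, 62.1, 149 and 183 CPM (-1.65 ± 0.29, adjusted p = 6.28e-05), and on T3 it had 151, 127, 108 and 110.0 CPM, which overlapped with T3 alone (-0.35 ± 0.28, not called). In knockouts CCl4 lowered it on PBS (169, 257, 57.8 and 223 CPM, -0.94 ± 0.28, adjusted p = 0.0140) and on T3 (191, 181, 134 and 164 CPM, -1.44 ± 0.29, adjusted p = 3.59e-04). The call on PBS was lost in a fit of these 2 groups alone (-0.94, adjusted p = 0.0887). The mean of Afm was thus high in the 3 uninjured groups that were on PBS, knockout or both, and low in the other 5. Afm overlaps an antisense gene, Gm42109, on 108 exonic bases, and that gene had 32 counts over all libraries.

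Gc varied least of the 9. It measured 8993, 8466, 8726 and 7125 CPM in wild-type PBS oil and 5383, 5048, 5543 and 7140.0 CPM in wild-type PBS CCl4 livers, which overlapped only through oil replicate 4 and CCl4 replicate 4 (-0.53 ± 0.17, adjusted p = 0.0121). The call was lost in a fit of these 2 groups alone (-0.50, adjusted p = 0.0900), with no filter (-0.49, adjusted p = 0.0763) and with total-count scaling (-0.13, adjusted p = 0.396). No other comparison called Gc, and its group means ranged from 5779 to 8327 CPM. Afp, the fetal relative of albumin that lies between Alb and Afm in the cluster and was not among the 9, moved the other way. It rose from 0.731, 0.713, 2.02 and 1.62 CPM to 11.9, 12.6, 19.9 and 4.73 CPM after CCl4 in wild type on PBS (3.25 ± 0.42, adjusted p = 1.63e-06), and T3 lowered it on CCl4 to 2.19, 2.15, 2.7 and 1.53 CPM (-2.51 ± 0.40, adjusted p = 1.55e-05). In knockouts on T3 and CCl4 it stayed at 5.77, 7.10, 9.11 and 3.54 CPM, and its T3 response on CCl4 differed between the genotypes (2.0 ± 0.54, adjusted p = 0.00814).

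Rbp4 (ENSMUSG00000024990, chromosome 19, 38116629 to 38125281, minus strand) and Ambp (ENSMUSG00000028356, chromosome 4, 63143275 to 63154799, minus strand) encode lipocalins. Rbp4 carries retinol from the liver, and Ambp is cleaved into alpha-1-microglobulin, a haem-binding scavenger, and bikunin, a protease inhibitor joined to the inter-alpha-inhibitor heavy chains.

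Rbp4 measured 2333, 2043, 1815 and 2928 CPM in wild-type PBS CCl4 and 4052, 3496, 3992 and 3929.8 CPM in wild-type T3 CCl4 livers. All T3 livers were above all PBS livers (0.76 ± 0.19, adjusted p = 0.00174). In knockouts the same groups had 3360.2, 3345, 1712 and 2598 and 2091, 1878, 2036 and 2523 CPM, which overlapped, with a change of -0.37 ± 0.19 (adjusted p = 0.337). The T3 response on CCl4 differed between the genotypes by -1.13 ± 0.26, adjusted p = 0.00256, which held whichever library was left out. Uninjured livers had 2748, 3271, 3278 and 3099 CPM in wild type on PBS, 2978, 3704, 2627 and 2142 in wild type on T3, 3376, 3833, 3222 and 3035 in knockouts on PBS and 2764, 3099, 3079 and 3033 in knockouts on T3. These groups overlapped, and T3 on oil gave no call in either genotype (-0.11 ± 0.19 and -0.17 ± 0.19).

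On T3 and CCl4 every knockout liver had less Rbp4 than every wild-type liver (-0.86 ± 0.19, adjusted p = 0.00128). CCl4 lowered it in knockouts on T3 (-0.49 ± 0.19, adjusted p = 0.0370), a call lost without any 1 of 6 libraries (adjusted p up to 0.10) and with total-count scaling (-0.34, adjusted p = 0.0913). In wild type the CCl4 effect was -0.44 ± 0.19, adjusted p = 0.0518 on PBS, short of the threshold though DESeq2 called it (-0.45, adjusted p = 0.0257), and 0.43 ± 0.19 on T3. The difference between the T3 responses on CCl4 and on oil was called in wild type (0.88 ± 0.26, adjusted p = 0.0173), but not with total-count scaling (0.42, adjusted p = 0.141). The CCl4 response on T3 differed between the genotypes (-0.92 ± 0.26, adjusted p = 0.0206), a call lost on leaving out replicate 4 of wild-type T3 oil (-0.81, adjusted p = 0.0536).

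Ambp was called higher with T3 in injured livers of both genotypes, and neither call held in every setting. It measured 1767, 2009.8, 2344 and 2396 CPM in wild-type PBS CCl4 and 3162, 3232, 2558 and 3649.6 CPM in wild-type T3 CCl4 livers, with no overlap (0.57 ± 0.19, adjusted p = 0.0175). That call was lost without T3 replicate 4 (0.50, adjusted p = 0.0537) or PBS replicate 1 (0.48, adjusted p = 0.0621). Total-count scaling (0.21, adjusted p = 0.235) and a fit with no filter (0.51, adjusted p = 0.0684) ended it too. In knockouts it measured 2014, 3159, 1672 and 2398 and 4014, 4019, 2576 and 5509 CPM, with 1 T3 liver inside the PBS range (0.80 ± 0.19, adjusted p = 0.0188). The responses did not differ between the genotypes at the threshold (0.24 ± 0.27, 95% interval -0.31 to 0.78). The knockout call was lost in a fit of these 2 groups alone (0.79, adjusted p = 0.238) and without any 1 of 3 libraries (adjusted p up to 0.111, without knockout T3 CCl4 replicate 4). Ambp also rose after CCl4 in knockouts on T3 (0.48 ± 0.19, adjusted p = 0.0450), and there the groups overlapped and leaving out any 1 of 7 libraries ended the call (adjusted p up to 0.236). On oil it measured 2459.5, 2497, 2059 and 2362 CPM in wild type on PBS and 2572, 3308, 3068 and 2802 on T3, groups that did not overlap but gave no call (0.33 ± 0.19, adjusted p = 0.187).

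Ahsg (ENSMUSG00000022868, chromosome 16, 22891277 to 22899449, plus strand) and Fetub (ENSMUSG00000022871, chromosome 16, 22918334 to 22939778, plus strand) are neighbours that encode fetuin-A, which keeps calcium phosphate in solution, and fetuin-B, an inhibitor of a zinc protease of the egg. Of the 9, only Ahsg was called higher with T3 in both uninjured and injured wild-type livers. It measured 6073, 7118, 9840.3 and 6904 CPM in wild-type PBS oil and 16086, 17665, 15177 and 16459 CPM in wild-type T3 oil livers, a 2.18-fold rise with no overlap (1.13 ± 0.22, adjusted p = 1.93e-04). On CCl4 it measured 7311, 6977, 7573 and 6295 CPM on PBS and 17099, 20728, 20105 and 17884 CPM on T3, a 2.69-fold rise with no overlap (1.43 ± 0.22, adjusted p = 1.14e-05). Neither rise was lost without any 1 library.

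In knockouts Ahsg measured 7459, 11729, 7393 and 7162 CPM on PBS and oil and 8466, 9693, 9328 and 10707 on T3 and oil, which overlapped (0.18 ± 0.22, adjusted p = 0.632). On CCl4 it measured 12422, 14696, 5450.1 and 11080.4 CPM on PBS and 15554, 15958, 12875 and 17217 on T3, which also overlapped (0.50 ± 0.22, adjusted p = 0.254). The T3 response was smaller in knockouts than in wild type on oil (-0.95 ± 0.31, adjusted p = 0.0434) and on CCl4 (-0.93 ± 0.31, adjusted p = 0.0299). The first of these calls was lost without any 1 of 11 of the 16 libraries (adjusted p up to 0.105, without knockout PBS oil replicate 2) and with the replicate number as a block (-0.92, adjusted p = 0.0537). The second was lost without any 1 of 6 (up to 0.0864, without knockout PBS CCl4 replicate 2) and with total-count scaling (-0.64, adjusted p = 0.0855). A fit of only the compared groups ended the second call as well (-0.93, adjusted p = 0.0871). With no filter neither was called (-0.99, adjusted p = 0.0939 on oil and -0.89, adjusted p = 0.0951 on CCl4). On T3 and oil every knockout liver had less Ahsg than every wild-type liver (-0.78 ± 0.22, adjusted p = 0.0148).

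For Ahsg the CCl4 effect in wild type on PBS was -0.09 ± 0.22 (95% interval -0.54 to 0.36) and not called, while Alb fell in the same livers. In knockouts on T3, CCl4 raised it with no overlap between the groups (0.69 ± 0.22, adjusted p = 0.0141). Ahsg shares 62 exonic bases with Gm30505, an antisense gene model that was not among the genes of the table.

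Fetub was called in 1 of the 18 comparisons, with 499, 667, 561 and 579 CPM in knockout T3 oil against 272, 430.3, 306 and 339 CPM in wild-type T3 oil livers (0.77 ± 0.22, adjusted p = 0.0140, no overlap). The call was lost without knockout T3 oil replicate 2 (0.70, adjusted p = 0.0514) or wild-type T3 oil replicate 1 (0.68, adjusted p = 0.0612). In the same 8 livers Ahsg lay the other way, so these neighbouring genes had opposite differences between the genotypes.

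Azgp1 (ENSMUSG00000037053, chromosome 5, 137981520 to 137990233, plus strand) encodes zinc-alpha-2-glycoprotein, a lipid-mobilizing protein with the fold of an MHC class I chain. Its group profile was closer to that of Alb than to those of the other 7 genes. It measured 1633, 1641, 1684 and 1266 CPM in wild-type PBS oil, 678, 469.9, 698 and 1139 in PBS CCl4, 794, 1138, 1036 and 842 in T3 oil and 1248, 1118, 1161 and 1322 in T3 CCl4 livers. It fell after CCl4 on PBS with no overlap (-1.06 ± 0.23, adjusted p = 6.09e-04) and after T3 on oil with no overlap (-0.71 ± 0.23, adjusted p = 0.0178). It rose after T3 on CCl4, where wild-type PBS CCl4 replicate 4 lay inside the T3 range (0.70 ± 0.23, adjusted p = 0.0165), and the T3 response differed between CCl4 and oil (1.41 ± 0.33, adjusted p = 0.00350). The fall with T3 was not called without T3 oil replicate 1 or 4 (adjusted p = 0.0613 and 0.0528). Leaving out wild-type PBS CCl4 replicate 2 ended the call of the rise (0.53, adjusted p = 0.0815), as did a fit of the 2 CCl4 groups alone (0.70, adjusted p = 0.0637).

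In knockouts Azgp1 measured 1468, 1601, 1413 and 1528 CPM in PBS oil, 931, 1347, 455 and 1017 in PBS CCl4, 1464, 1630.4, 1352 and 1383 in T3 oil and 1139, 912, 775 and 1099.8 in T3 CCl4 livers. CCl4 lowered it on PBS with no overlap (-0.68 ± 0.23, adjusted p = 0.0272), a call lost without any 1 of 4 libraries (up to 0.11, without knockout PBS CCl4 replicate 3) and in a fit of these 2 groups alone (-0.68, adjusted p = 0.115). On T3 the CCl4 groups did not overlap either, at -0.57 ± 0.23, adjusted p = 0.0504, which was not called, though DESeq2 called it (-0.57, adjusted p = 0.0352). T3 gave no call in knockouts (-0.04 ± 0.23 on oil and 0.07 ± 0.23 on CCl4).

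Serpina6 (ENSMUSG00000060807, chromosome 12, 103646630 to 103657212, minus strand) encodes corticosteroid-binding globulin, the plasma carrier of glucocorticoids, a serpin that releases its hormone when its loop is cleaved at sites of inflammation. It had the widest changes of the 9 in injured livers. Uninjured livers had 342, 791, 555 and 668 CPM in wild type on PBS, 628, 869, 611 and 549 in wild type on T3, 503, 1006, 605 and 566 in knockouts on PBS and 797, 589, 669 and 436 in knockouts on T3. All 4 oil groups overlapped, with no call for T3 or genotype on oil.

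After CCl4 Serpina6 measured 50.8, 20.8, 22.8 and 191 CPM in wild type on PBS, an 8.27-fold fall with no overlap (-3.05 ± 0.62, adjusted p = 2.7e-04). In wild type on T3 it measured 526, 442, 433 and 469 CPM, all below the T3 oil livers, but the change of -0.51 ± 0.57 was not called (adjusted p = 0.788). T3 thus raised it 6.56-fold in injured wild-type livers, where every T3 liver was above every PBS liver (2.71 ± 0.61, adjusted p = 7.54e-04). Wild-type PBS CCl4 replicate 4, with 191 CPM, set the size of these values. Without it the fall was -4.23, adjusted p = 3.95e-06, and the rise with T3 was 3.89, adjusted p = 8.53e-06.

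In knockouts Serpina6 measured 126, 264, 17.4 and 260.5 CPM on PBS and CCl4 and 26.3, 27.8, 20.7 and 73.1 CPM on T3 and CCl4. Both groups were below all oil livers of their hormone group (-2.01 ± 0.59, adjusted p = 0.0122 on PBS and -4.08 ± 0.65, adjusted p = 3.02e-05 on T3, the latter a 16.9-fold fall). On PBS the call did not hold in a fit of these 2 groups alone (-2.0, adjusted p = 0.0513). On T3 and CCl4, knockouts had 12.7-fold less Serpina6 than wild type, and no liver of one genotype reached the range of the other (-3.66 ± 0.63, adjusted p = 1.22e-04).

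The T3 response of Serpina6 in injured livers had opposite signs in the 2 genotypes. T3 lowered it in knockouts (-2.18 ± 0.60, adjusted p = 0.0452), though the groups overlapped through PBS replicate 3 and leaving out any 1 of 6 libraries ended the call (adjusted p up to 0.143). It was also not called in a fit of these 2 groups alone (-2.19, adjusted p = 0.202). The difference between the genotypes was -4.89 ± 0.85, adjusted p = 1.55e-04 and held whichever library was left out, at -6.07, adjusted p = 2.09e-06 without wild-type PBS CCl4 replicate 4. The CCl4 response on T3 differed between the genotypes as well (-3.57 ± 0.83, adjusted p = 0.00690). In wild type the T3 response was higher on CCl4 than on oil by 2.54 ± 0.82, adjusted p = 0.0251, a call lost without T3 oil replicate 4 (2.46, adjusted p = 0.0511) or PBS CCl4 replicate 2 (2.24, adjusted p = 0.0530). Without wild-type PBS CCl4 replicate 4 it was 3.72, adjusted p = 4.93e-04.

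Mean Serpina6 and the median hepatocyte marker sum were lowest in the same 2 groups, wild-type PBS CCl4 and knockout T3 CCl4. That sum includes a plasma carrier gene, as given above, and is not an independent measure of hepatocyte content. Hepatocyte marker sums reached at most 7718 CPM in knockout T3 CCl4 livers and at least 11736 in wild-type T3 CCl4 livers. Summed levels of 5 macrophage markers ran from 375 to 577 CPM in wild-type T3 CCl4 and from 236 to 348 in knockout T3 CCl4 livers, and those of 5 cholangiocyte markers from 56.7 to 156 and from 116 to 245. The part of these cell types in the Serpina6 difference was not tested. Against wild type on T3 and CCl4, Rbp4 was also called lower in knockouts (-0.86 ± 0.19, adjusted p = 0.00128). Ahsg (-0.30 ± 0.22, adjusted p = 0.347), Ambp (0.36 ± 0.19, adjusted p = 0.180) and the remaining carriers were not called. With total-count scaling Alb (0.48, adjusted p = 0.0283) and Ambp (0.47, adjusted p = 0.0236) were called higher in knockouts.

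A ratio of reads within a library needs no library scaling. Per 1000 Alb reads, wild-type PBS livers had 73.1 Gc reads on oil and 132 on CCl4, 66.9 and 164 Ahsg reads, 20.7 and 48.4 Ambp reads, 27.7 and 52 Rbp4 reads, and 3.53 and 6.93 Fetub reads. For these 5 genes every CCl4 liver was above every oil liver. Alb, the divisor, itself fell 2.60-fold in these livers, so a gene that fell less than Alb rises in this ratio. Ahsg and Ambp rose in it although their log2 fold changes of -0.09 ± 0.22 and -0.14 ± 0.19 were not called. The share of all genes with such a rise was not counted. Azgp1 kept its ratio within the spread (11.7 to 15.2 on oil and 10.5 to 21.5 on CCl4), as did Afm (3.44 to 3.87 and 1.39 to 4.0, overlapping). Serpina6 reads per 1000 Alb reads ran from 2.45 to 7.09 on oil and from 0.464 to 3.61 on CCl4, which overlapped. In knockout T3 CCl4 livers they ran from 0.267 to 0.966, against 5.90 to 8.50 in wild-type T3 CCl4 livers. The Ahsg ratio in uninjured wild-type livers on T3 was 235 (209 to 298), with no overlap with PBS (43.5 to 88.9), and in uninjured knockouts it was 80.3 on T3 and 76.3 on PBS. No test was run on these ratios.

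**Figure D4:**
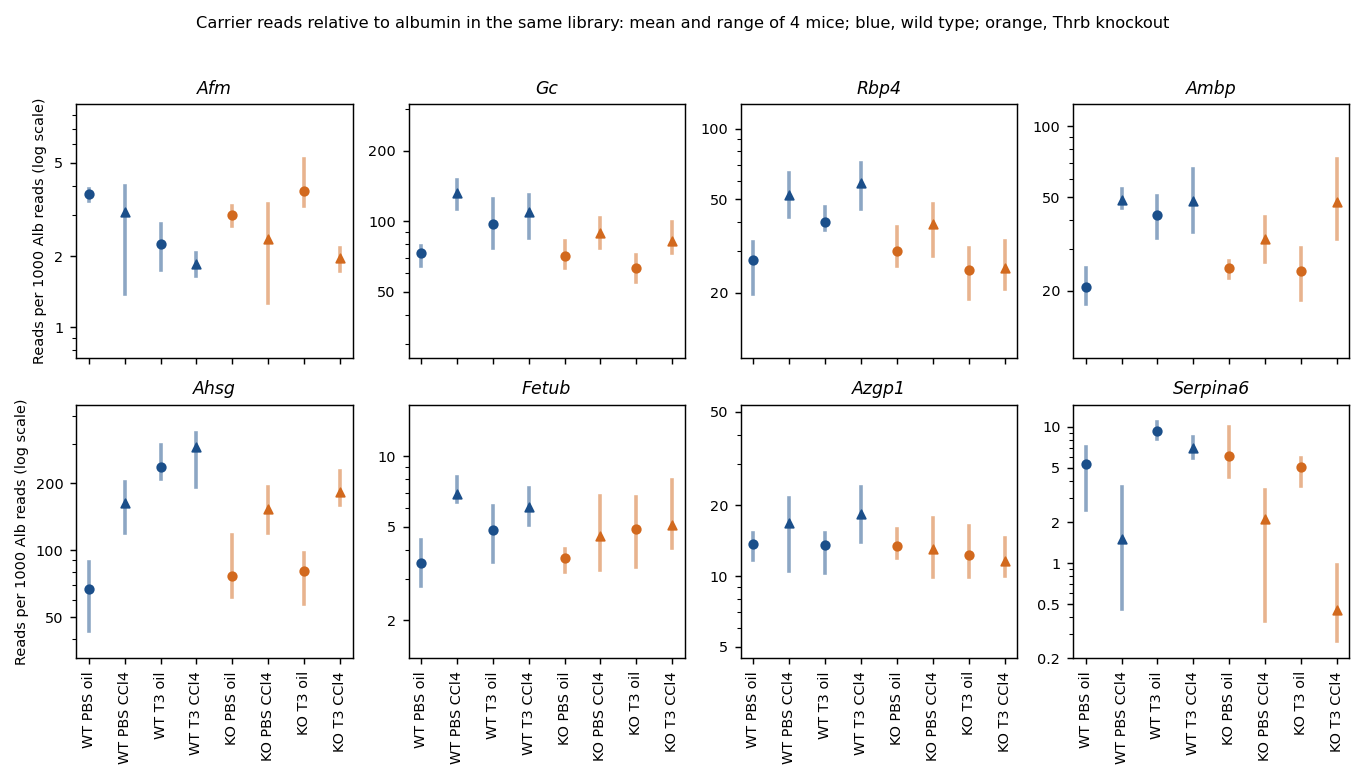
Reads of 8 carrier genes per 1000 Alb reads of the same library on a log axis, mean (point) and range (line) of 4 mice, wild type in blue and knockout in orange, circles oil and triangles CCl4. Ahsg has 66.9 reads in wild-type PBS oil and 289.7 in wild-type T3 CCl4 livers, and Serpina6 is lowest in knockout T3 CCl4 livers (0.452).

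Other plasma carriers were listed for comparison, 16 genes that all passed the filter. After CCl4 in wild type on PBS 8 were called lower and 3 higher, where 21.6% and 24.6% of all genes were (median -0.31, against 0.04 over all genes). Apoh, which encodes beta-2-glycoprotein I, fell (-1.22 ± 0.19, adjusted p = 1.51e-05), and haem-binding Hpx rose (1.45 ± 0.27, adjusted p = 1.22e-04), as did Afp. T3 in wild type on oil lowered 5 and raised 3 (16.2% and 19% of all genes), with a median of 0.25 on the other side of 0. Serpina7, the gene of thyroxine-binding globulin, fell most (-8.62 ± 0.81, adjusted p = 2.27e-09), Itih3, an inter-alpha-inhibitor heavy chain that is joined to bikunin, fell (-1.27 ± 0.23, adjusted p = 8.70e-05), and Apom, a lipocalin of HDL, rose (1.14 ± 0.23, adjusted p = 2.28e-04), as did Hpx (1.17 ± 0.27, adjusted p = 0.00101).

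T3 in wild type on CCl4 raised 9 of the 16 and lowered 4 (20% and 21.7% of all genes, median 0.59, against -0.06 over all genes). Apom rose (2.39 ± 0.24, adjusted p = 8.47e-09), and Serpina7 (-5.56 ± 0.69, adjusted p = 3.96e-07) and Afp fell. The T3 response on oil differed between the genotypes for 2 (12.2% of all genes), Serpina7 (6.04 ± 0.90, adjusted p = 3.37e-05) and Itih3 (1.49 ± 0.33, adjusted p = 0.00273), both with a higher response in knockouts than in wild type. On CCl4 it differed for 13 (22.7% of all genes), 6 with a more positive and 7 with a more negative response in knockouts, beside 3 more negative and none more positive of the 9 genes above.

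Genes that handle the ligands of the 9, such as retinol, vitamin D, vitamin E and glucocorticoids, were 10, all tested. CCl4 in wild type on PBS lowered 7 and raised none, where 21.6% of all genes were lower and 24.6% higher. They included Hsd11b1, which regenerates active glucocorticoid in liver (-1.38 ± 0.21, adjusted p = 9.95e-06), Ttpa, which loads vitamin E onto lipoproteins (-0.92 ± 0.24, adjusted p = 0.00244), and Cyp27a1, which hydroxylates sterols and vitamin D (-1.06 ± 0.28, adjusted p = 0.00290). T3 on CCl4 raised 9 of the 10 in wild type (20% of all genes), with Cyp27a1 (2.82 ± 0.30, adjusted p = 2.33e-08), Ttpa (1.56 ± 0.24, adjusted p = 8.89e-06) and the vitamin D hydroxylase Cyp2r1 (1.32 ± 0.24, adjusted p = 8.37e-05) at the smallest adjusted p. The T3 response on CCl4 was lower in knockouts than in wild type for 5 of the 10 (12.4% of all genes). In knockouts alone, where T3 on CCl4 called 2.54% of all genes, none of the 10 was called. On oil T3 raised 2 in wild type (19% of all genes), among them Cyp27a1 (1.70 ± 0.28, adjusted p = 2.39e-05), and lowered Hsd11b1 (-0.88 ± 0.20, adjusted p = 0.00113). The response on oil was lower in knockouts for Cyp27a1 (-1.5 ± 0.39, adjusted p = 0.0114) and for the glucocorticoid receptor gene Nr3c1 (-0.74 ± 0.21, adjusted p = 0.0215).

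Of 13 transcription factors of hepatocyte secreted-protein genes, CCl4 in wild type on PBS lowered 6 and raised 1 (21.6% and 24.6% of all genes). Nr5a2 fell (-0.96 ± 0.18, adjusted p = 1.06e-04), Cebpa fell (-1.09 ± 0.27, adjusted p = 0.00180), and Cebpb, the family member that acts in inflammation and regeneration, rose (1.74 ± 0.33, adjusted p = 1.63e-04). T3 on oil raised Cebpb (3.13 ± 0.35, adjusted p = 4.23e-08) and lowered 3, Nr5a2 (-1.11 ± 0.18, adjusted p = 1.28e-05), Cebpa (-1.26 ± 0.27, adjusted p = 5.36e-04) and Tef, as given above, where 19% of all genes were higher and 16.2% lower. In knockouts the T3 response on oil was lower for Cebpb (-2.61 ± 0.46, adjusted p = 3.24e-04) and higher for Cebpa (1.20 ± 0.38, adjusted p = 0.0355). T3 on CCl4 raised 4 in wild type and lowered none (20% and 21.7% of all genes), with Foxa2 (0.78 ± 0.21, adjusted p = 0.00403), Hnf4a, a central hepatocyte factor (0.80 ± 0.25, adjusted p = 0.0108), and Hlf (0.97 ± 0.33, adjusted p = 0.0208) at the smallest adjusted p. The fourth was Cebpb (0.91 ± 0.32, adjusted p = 0.0224), so Cebpb rose after T3 in both wild-type conditions. After CCl4 in wild type on PBS Hnf4a was at -0.59 ± 0.25, adjusted p = 0.0529.

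Acute-phase proteins that rise in inflammation, 10 genes, were measured in the same livers. After CCl4 in wild type on PBS 7 rose and none fell (24.6% and 21.6% of all genes), with Lcn2 (6.33 ± 0.74, adjusted p = 4.76e-07), Saa1 (8.13 ± 0.95, adjusted p = 4.76e-07) and Saa2 (9.13 ± 1.18, adjusted p = 1.54e-06) at the smallest adjusted p. Saa1 and Saa2 are near-identical and can exchange reads, as can Orm1 and Orm2. T3 in wild type on CCl4 lowered 3, Il1rn (-3.79 ± 0.55, adjusted p = 3.92e-06), Apcs (-2.45 ± 0.42, adjusted p = 4.11e-05) and Lcn2 (-1.63 ± 0.60, adjusted p = 0.0292), and raised Orm1 (0.93 ± 0.34, adjusted p = 0.0312), where 21.7% of all genes were lower and 20% higher. On oil T3 lowered Apcs (-2.89 ± 0.43, adjusted p = 4.74e-06) and raised Orm1 (1.40 ± 0.35, adjusted p = 0.00227) and Orm2 (2.55 ± 0.68, adjusted p = 0.00403), and the response on oil was higher in knockouts for Apcs (2.43 ± 0.57, adjusted p = 0.00528) and Il1rn (3.19 ± 0.77, adjusted p = 0.00608), the only 2 of the 10 called, while the median of the list was -0.23. CCl4 in knockouts on T3 raised all 10 (19.7% of all genes), and the T3 response on CCl4 was higher in knockouts than in wild type for all 10 (10.3% of all genes, median 3.74). In the same knockout T3 CCl4 livers Serpina6, Afm and Rbp4 fell after CCl4 while Ahsg and Ambp rose, as given above.

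The genes with group profiles most like each carrier were found by the mean absolute log2 difference between centred profiles of the 8 group means (log2 of CPM plus 1, 13581 genes compared). For Alb they were Mylk, Bcat2 and C1s1 (0.0885, 0.0969 and 0.0972). Gc had the closest neighbours, Aph1a, Gata4 and Cd99l2 (0.0345, 0.0411 and 0.0413), and Serpina6 the most distant, Akr1d1, Afmid and Acss3 (0.296, 0.362 and 0.429). For Ahsg they were Kctd7, Gfra1 and Mad1l1 (0.0847, 0.0896 and 0.107), for Afm Mrnip, Grik5 and Gpr12 (0.140, 0.152 and 0.156) and for Rbp4 Dgcr6, Skp1a and Lamtor2 (0.0619, 0.0731 and 0.0823). For Azgp1 they were P2rx3, Eif4ebp2 and Zfyve21 (0.0476, 0.0734 and 0.0750), for Fetub Metap1d, Vtn and Ppox (0.0818, 0.0852 and 0.0883) and for Ambp Ormdl2, Plxnb2 and Gripap1 (0.0874, 0.0878 and 0.0882). Among the 9, the closest pairs were Rbp4 with Gc (0.152), Fetub with Gc (0.155) and Alb with Azgp1 (0.161). Alb was at 0.336 from Afm of the same cluster, Ahsg at 0.539 from its neighbour Fetub, and Serpina6 at 1.19 to 1.54 from each of the other 8. These values describe 8 means with no test.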

How the data were processed

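Polyadenylated liver RNA was sequenced in 32 libraries. Counts of reads per gene, not normalized, were deposited by the authors in 1 table. Alignment to GRCm38 used STAR 2.7.9a, with cutadapt, Trim Galore and FastQC 0.11.5 also named, per the submitters' processing notes. How reads were counted, on which strand and with which annotation is not stated there, so antisense reads cannot be separated. Per the labels' protocols 2 library kits were used, not assigned to libraries, so a kit batch cannot be told apart from the groups. Each library has its own identifier in the labels, which do not say further that replicates are separate mice. If they are not, p-values measure only technical spread.

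The test was edgeR's (version 4.0.16, in R 4.3.3 with limma 3.58.1) on the deposited counts, with TMM factors, filterByExpr (minimum count 10, minimum total 15), all 32 libraries in 1 fit with a mean per group, the quasi-likelihood F test and Benjamini-Hochberg adjustment over the 15599 genes kept, holding 99.5% or more of every library's counts. Of 18 comparisons 12 were between 2 groups and 6 were differences between responses. CPM were computed from the counts with the TMM factors. Symbols and positions came from GENCODE vM21 for 52403 of the 52636 genes, promoters from RefSeq (GRCm38.p6), and 1 listed gene was found under its current symbol, Trf, through RefSeq synonyms. Simulated counts were used to check the test.

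The carriers and lists were chosen with earlier results of these data known. From each list the rule names up to 3 called genes with the smallest adjusted p and 2 against the majority in 4 comparisons, and Afp, Dbp and Hnf4a in any case. Not every gene that the rule names is reported here. Alternatives were DESeq2 1.42.0, total-count scaling, factors without the 9 genes, no filter, only the compared groups, a replicate block and each library left out, and, added after seeing the data, both distant libraries left out. Equal replicate numbers showed no general shared deviation. Over 112 pairs with the same number the median correlation of deviations was -0.009 (range -0.35 to 0.51), and 13 exceeded 0.1. Of 32 libraries, 4 correlated best with their own number. Such correlations cannot exclude that the numbers pair mice.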

Additional observations from a re-analysis of the deposited data

Results flagged for a closer look

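Of 72 sets of 4 mice, 4 had a library set apart from the other 3 by a gap above Dixon's 95% critical value, and chance gives about 1 in 20. Knockout PBS oil replicate 2 was low for Alb, at 100487 CPM against 116332 to 118008, and high for Ahsg, at 11729 CPM against 7162 to 7459. Wild-type PBS oil replicate 4 was low for Azgp1, at 1266 CPM against 1633 to 1684. Knockout T3 CCl4 replicate 4 was high for Serpina6, at 73.1 CPM against 20.7 to 27.8, and also held the most Lcn2 of its group (3964 CPM against 949 to 1985).

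The T3 response differed between the genotypes (knockout minus wild type, log2) on oil for Afm by 1.84 (adjusted p = 0.00264) and for Ahsg by -0.95 (adjusted p = 0.0434). On CCl4 it differed for Serpina6 by -4.89 (adjusted p = 1.55e-04), for Rbp4 by -1.13 (adjusted p = 0.00256) and for Ahsg by -0.93 (adjusted p = 0.0299). The CCl4 response on T3 differed for Serpina6 by -3.57 (adjusted p = 0.00690) and for Rbp4 by -0.92 (adjusted p = 0.0206). In wild type the T3 response on CCl4 minus that on oil was 1.41 (adjusted p = 0.00350) for Azgp1, 1.32 (adjusted p = 0.00484) for Alb, 2.54 (adjusted p = 0.0251) for Serpina6, 0.88 (adjusted p = 0.0173) for Rbp4 and 1.3 (adjusted p = 0.0196) for Afm. These are 12 of the 54 such differences tested for the 9 genes, by edgeR's quasi-likelihood test adjusted over all genes.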

How the results depend on the processing

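No called fold change of the 9 genes changed direction under any setting run. The number of the 9 called moved by over 1.5 times as follows. In a fit of only the compared groups it went from 4 to 0 for CCl4 in knockouts on PBS, from 0 to 1 for T3 in knockouts on oil, from 2 to 0 for T3 in knockouts on CCl4, from 2 to 5 for genotype by T3 on oil and from 2 to 4 for genotype by CCl4 on T3. With total counts alone it went from 6 to 3 for T3 in wild type on CCl4, from 0 to 1 for T3 in knockouts on oil, from 2 to 4 for the genotypes on T3 and CCl4 and from 5 to 3 for T3 by CCl4 in wild type. With no filter it went from 5 to 3 for CCl4 in knockouts on T3, from 2 to 1 for genotype by T3 on oil and from 2 to 1 for genotype by CCl4 on T3. With DESeq2 it went from 0 to 2 for the genotypes on PBS and CCl4, from 2 to 4 for genotype by CCl4 on T3 and from 0 to 1 for T3 by CCl4 in knockouts. With both distant libraries left out it went from 0 to 1 for the genotypes on PBS and CCl4 and from 0 to 2 for T3 by CCl4 in knockouts. The replicate block took genotype by T3 on oil from 2 to 1 (Ahsg, -0.92, adjusted p = 0.0537) and changed no other call of the 9. Factors without the 9 genes changed no call. The causes were not tested.

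With each library left out in turn, the number called was 5 to 6, 0 to 0, 2 to 6 and 3 to 5 for CCl4 (wild type on PBS and T3, knockouts on PBS and T3), 2 to 4, 4 to 7, 0 to 0 and 0 to 2 for T3 (wild type on oil and CCl4, knockouts on oil and CCl4), and 0 to 0, 0 to 2, 3 to 4 and 2 to 3 for the genotypes (PBS oil, PBS CCl4, T3 oil, T3 CCl4). It was 1 to 2 and 2 to 4 for genotype by T3 (oil, CCl4), 0 to 0 and 1 to 3 for genotype by CCl4 (PBS, T3), and 4 to 6 and 0 to 1 for T3 by CCl4 (wild type, knockouts). Of 1728 fold changes so refitted, 66 lost and 21 gained a call. The 2 calls lost with both distant libraries left out were Alb (-0.52, adjusted p = 0.0943) and Azgp1 (-0.45, adjusted p = 0.0618) for CCl4 in knockouts on PBS. Without knockout PBS CCl4 replicate 3 the genotypes on PBS and CCl4 differed for Alb (0.83, adjusted p = 0.0242) and Ahsg (0.85, adjusted p = 0.00943), and without wild-type PBS CCl4 replicate 4 for Serpina6 (2.41, adjusted p = 0.00791) and Alb (0.78, adjusted p = 0.0416).

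Over all genes tested, the count called went with only the compared groups from 7202 to 4504 (CCl4, wild type, PBS), from 531 to 818 (CCl4, wild type, T3), from 6506 to 4143 (T3, wild type, CCl4), from 396 to 86 (T3, knockouts, CCl4), from 351 to 3 (genotypes, PBS CCl4), from 3538 to 2300 (genotype by T3, CCl4), from 2099 to 3489 (genotype by CCl4, T3) and from 3 to 0 (genotype by CCl4, PBS). DESeq2 took 396 to 688, 84 to 144 (genotypes, PBS oil) and 351 to 736. No filter took 351 to 205, total counts took 3722 to 6004 (T3 by CCl4, wild type), and both distant libraries left out took 396 to 1163, 351 to 209, 3 to 0 and 578 to 1235 (T3 by CCl4, knockouts). With each library left out in turn, the count over all genes moved by over 1.5 times in 8 comparisons. It ran from 70 to 1748 against 351 for the genotypes on PBS and CCl4 (lowest without wild-type PBS CCl4 replicate 2, highest without its replicate 4, and 964 without knockout PBS CCl4 replicate 3), from 165 to 591 against 396 for T3 in knockouts on CCl4 (lowest without knockout T3 CCl4 replicate 4) and from 47 to 99 against 84 for the genotypes on PBS and oil (lowest without wild-type PBS oil replicate 2). For CCl4 it ran from 2987 to 4707 against 4854 in knockouts on PBS (lowest without PBS CCl4 replicate 3) and from 328 to 483 against 531 in wild type on T3 (lowest without T3 oil replicate 4). It ran from 1303 to 2378 against 2099 for genotype by CCl4 on T3 (lowest without knockout T3 CCl4 replicate 3), from 329 to 779 against 578 for T3 by CCl4 in knockouts (lowest without T3 CCl4 replicate 4) and from 0 to 14 against 3 for genotype by CCl4 on PBS (highest without wild-type PBS CCl4 replicate 4). The shares of all genes called in the report move with these counts. Of the 72 group means, 15 moved by over 1 SD with total-count CPM.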

Other observations

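In some groups a single library held the lowest or highest level for most of the 9 genes. The share of all genes that were extreme in these libraries was not counted, so this is not a result about the carriers. Knockout PBS CCl4 replicate 3 held the lowest level of its group for 9 of 9 genes, with a hepatocyte marker sum of 5862 CPM against 11752 to 14623 in the other 3. Wild-type PBS CCl4 replicate 4 held the highest level for 8 of 9, with a hepatocyte marker sum of 11103 CPM against 4927 to 7072 and the least Lcn2 of the group (188 CPM against 330 to 1587). Wild-type T3 oil replicate 2 held the highest level for 8 of 9, with a hepatocyte marker sum of 16581 CPM against 11361 to 16117. Knockout PBS CCl4 replicate 2 held the highest level for 7 of 9, and knockout T3 CCl4 replicate 3 the lowest for 7 of 9. These marker sums include a plasma carrier gene and are not independent of carrier levels. The part of hepatocyte content in these differences between mice was not tested.

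Dbp, which clock factors drive, was at 46.1 and 16.2 CPM in wild-type PBS oil replicates 2 and 3 and at 0.506 and 0.732 in replicates 1 and 4. In knockout PBS oil livers it was at 20.4 CPM in replicate 2 and at 0.352 to 0.709 in the other 3. That replicate was the library set apart for Alb and Ahsg, and it also held the most Serpina6 of its group (1006 CPM against 503 to 605). The hour of sampling is not given in the sources used here, and its part in these values was not tested.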
